A study of Homo sapiens with 15 samples.

Results

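The transcriptome of untreated K562 cells was described from 3 libraries of the 15 in the study, the 3 that the sample labels give as untreated. The other 12 libraries came from K562 cells exposed to martinostat, an inhibitor of histone deacetylases (HDACs), for 24 h, with 3 biological replicates at each of 4 concentrations: 0.15 µM, 0.25 µM, 0.5 µM or 1 µM. All libraries were poly(A)-selected RNA from the same cell line, grown in RPMI medium with fetal bovine serum, so every value below describes a single line and not a primary leukemia. The labels name no vehicle for the untreated cells, and they call the cells myelogenous leukemia cells of bone marrow.

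K562 is an established human line of chronic myeloid leukemia in blast crisis that carries the BCR-ABL1 fusion, a tyrosine kinase that is always active. The line is known for its erythroid character: it makes embryonic and fetal hemoglobin and can be pushed toward red cell or megakaryocyte fates. In red cell precursors the transcription factor GATA1, with its partners TAL1, LMO2 and LDB1 and with KLF1, switches on globin, heme synthesis and membrane genes by binding GATA motifs in their promoters and enhancers. The untreated cells are the state against which an HDAC inhibitor acts, since deacetylases keep many silent genes closed.

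The untreated libraries held 29555379, 32805574 and 32593881 counts, within the range of 23755510 to 32805574 over the 15 libraries. Levels are given as TPM, a share of all transcripts, computed from the raw counts and the exon length of each gene, to set genes side by side. The length is the union of all annotated exons, which can exceed that of the transcripts made. Levels of such genes can be too low, and orders and ratios between genes share this limit. EEF1A1, with 10063 exon bases and 1104861 counts, fell below EEF2, with 4021 and 483627. A gene was taken as expressed at 1 TPM or more in each of the 3 libraries, as undetected at 0 counts in all 3, and as low otherwise. A count of 0 over the 3 libraries together allows up to 3 counts, or 0.0316 CPM (counts relative to library size, as TPM without the length), which covers counting error only. Of 480 coding genes whose exons lay 95% or more under another gene, on either strand, 88.3% were undetected, against 25.2% of 10455 that share none. Counts on the shared bases themselves were not measured, and the reason for this difference was not tested. Where 50% or more of the exon sequence is shared, values are therefore uncertain and are marked as such. Among the expressed genes, log2 TPM of library pairs correlated at 0.983 to 0.985 (Pearson, across 14594 genes, which are not independent replicates). The biological coefficient of variation, the spread between libraries beyond counting noise as edgeR estimates it, was 0.0901 over 15206 genes. No pair of libraries agreed within sampling noise, since the chi-square per degree of freedom of their counts was 9.33 to 12.8. The floor and this chi-square take counts as independent, which the 2 mates of a read pair are not if counted separately.

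Of 19884 protein-coding genes, 10829 (54.5%) were expressed, 5002 were low and 4053 (20.4%) were undetected. At 1 or more of the deposited FPKM, which divide by the genomic span with introns, 5323 would count as expressed, and 6335 had under 10 counts over the 3 libraries together. The median of all protein-coding genes was 2.78 TPM, and 1862 of them reached a mean of 100 TPM. Protein-coding genes made up 90.0% ± 0.478 (SD, n = 3) of all TPM. Of 16715 long non-coding RNA genes, 1818 (10.9%) were expressed, with 2.03% ± 0.183 of TPM. The 10 highest genes held 6.34% ± 0.0388 of TPM, the 100 highest 23.3% ± 0.203 and the 1000 highest 58.2% ± 0.204 (SD, n = 3).

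Erythroid genes with low CpG content and a GATA motif next to the start are shown here beside silent genes of other blood lineages, to let the sequence be read with the level. The 250 bases before the start of 3 expressed erythroid genes and of 2 genes without a count are given from RefSeq (GRCh38.p14), 5′ to 3′ on the strand of the gene. Capitals mark AGATAA or TGATAA, or their reverse complements TTATCT or TTATCA. KLF1, a zinc finger activator of globin genes, lies on the minus strand (chr19:12887202-12887451). RHAG encodes a red cell membrane channel for ammonia (chr6:49636840-49637089, minus strand). ALAS2 is the erythroid enzyme that starts heme synthesis (chrX:55030978-55031227, minus strand). CD34 marks blood stem cells (chr1:207911126-207911375, minus strand), and GP9 is a platelet glycoprotein (chr3:129060529-129060778, plus strand). These genes were chosen after their values were seen.
KLF1: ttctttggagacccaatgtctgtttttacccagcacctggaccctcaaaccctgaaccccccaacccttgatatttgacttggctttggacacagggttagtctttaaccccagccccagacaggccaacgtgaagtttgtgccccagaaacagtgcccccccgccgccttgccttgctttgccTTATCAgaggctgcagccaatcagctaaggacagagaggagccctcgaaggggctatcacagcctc
RHAG: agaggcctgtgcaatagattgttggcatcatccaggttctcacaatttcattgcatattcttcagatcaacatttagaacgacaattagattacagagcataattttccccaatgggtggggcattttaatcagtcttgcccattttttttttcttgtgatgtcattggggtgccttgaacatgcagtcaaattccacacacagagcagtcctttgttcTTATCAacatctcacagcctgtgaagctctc
ALAS2: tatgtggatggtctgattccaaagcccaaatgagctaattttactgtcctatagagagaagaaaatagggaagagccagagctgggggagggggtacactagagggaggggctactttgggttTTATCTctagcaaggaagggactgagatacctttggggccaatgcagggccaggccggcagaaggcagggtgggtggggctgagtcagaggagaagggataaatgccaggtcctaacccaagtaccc
CD34: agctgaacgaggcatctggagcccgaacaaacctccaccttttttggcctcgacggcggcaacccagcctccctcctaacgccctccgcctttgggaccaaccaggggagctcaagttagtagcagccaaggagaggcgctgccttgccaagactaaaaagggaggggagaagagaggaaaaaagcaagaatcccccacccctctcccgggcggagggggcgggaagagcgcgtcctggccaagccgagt
GP9: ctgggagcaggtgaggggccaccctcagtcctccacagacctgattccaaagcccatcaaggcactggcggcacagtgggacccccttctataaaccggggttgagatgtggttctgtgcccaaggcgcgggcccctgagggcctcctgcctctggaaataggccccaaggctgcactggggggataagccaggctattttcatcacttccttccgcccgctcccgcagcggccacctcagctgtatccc

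The capitals start at position -66 in KLF1, -31 in RHAG and -127 in ALAS2, counted from the start site. Neither CD34 nor GP9 held a match in this window. KLF1, RHAG and ALAS2 reached 808, 616 and 323 TPM, and CD34 and GP9 had no count. The same letters occurred in 10.3% of the 250-base windows before 19883 protein-coding genes, in 6.33% of those before expressed genes and in 17.3% of those before undetected genes. Among 49 expressed genes of the globin, erythroid transcription factor, heme synthesis and red cell membrane lists, 17 windows (34.7%) held a match. A match is a run of letters and not evidence of binding.

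The globins, the oxygen carriers of red cells, were read as embryonic and fetal forms far above the adult beta chain. HBZ, the embryonic alpha-type chain, was the highest at 2772, 2979 and 2957 TPM in the 3 libraries. HBG2, a fetal gamma chain, had 1345, 1492 and 1360.5 TPM, although 55.6% of its exon bases lie under another gene. HBA1 had 721, 947 and 725 TPM, HBQ1 472, 384 and 388, HBA2 388, 336 and 452 and HBG1 328, 265 and 236. The values of HBQ1 and HBA2 overlapped between libraries, while HBZ, HBG2 and HBA1 each lay apart from their neighbors in this order in all 3 libraries.

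The adult beta-type genes were low by comparison. HBD had 30.7, 45.4 and 33.4 TPM, and HBB, the adult beta chain, 5.53, 3.10 and 4.76. The level of HBG1 was 64.7 ± 18.6 times that of HBB (SD, n = 3), and that of HBD 9.07 ± 4.88 times. HBZ was 3.69 ± 0.487 times as high as HBA1. HBM, an alpha-type gene of the same locus, had 5 counts in all. HBE1, the embryonic beta-type chain, had 13 counts, but 90.0% of its exon bases lie under another gene, so its level cannot be read from this table. HBG1 and HBG2, and HBA1 and HBA2, are near-identical copies, and how reads that fit both were counted was not stated. The split within each pair is therefore uncertain. So are its sum, the ratios with its members and the globin share of TPM, if such reads were dropped. All 10 globins together held 0.622% ± 0.0203 of TPM (SD, n = 3), 8 of the 10 being expressed.

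**Figure D1:**
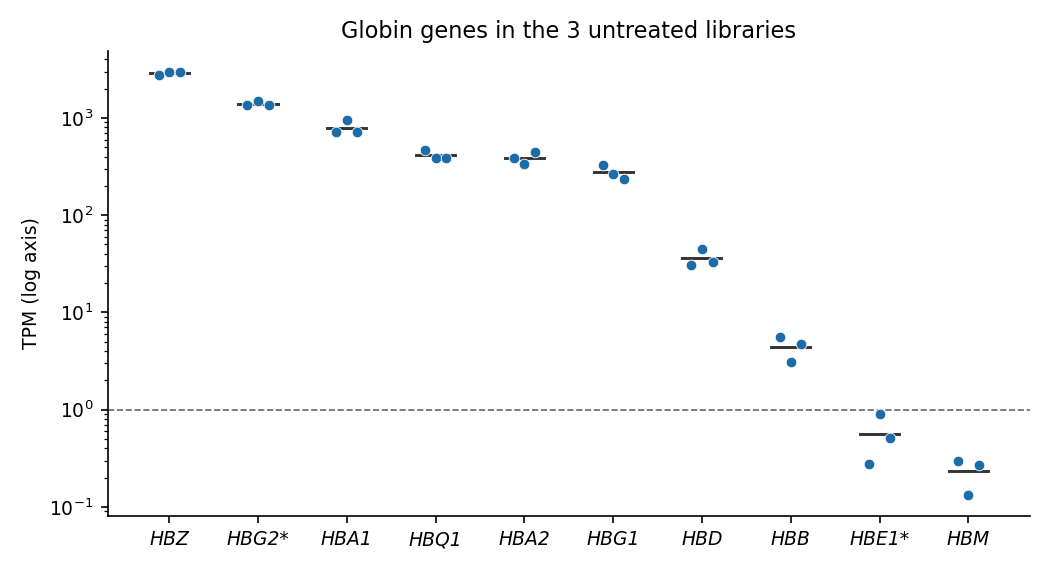
TPM of the 10 globin genes on a log axis in the 3 untreated libraries (points), with the mean as a bar and 1 TPM as a dashed line. HBZ lies at 2903 TPM and HBB at 4.46 TPM. Asterisks mark HBG2 and HBE1, whose exons lie 50% or more under another gene.

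The regulators of this program were high. Of 12 erythroid transcription factors 11 were expressed, against 54.5% of all protein-coding genes, and their median was 153 TPM. KLF1 had 888, 740.4 and 794 TPM. GATA1 had 684, 683 and 661 TPM, and NFE2, a basic leucine zipper factor of globin gene control, 369, 359.7 and 346. These 3 genes kept their order in each library. The partners of GATA1 followed, with LDB1 at 253 ± 1.92, LMO2 at 186 ± 7.56, TAL1 at 68.7 ± 6.43 and ZFPM1, the cofactor FOG1, at 61.7 ± 4.87 TPM (SD, n = 3). MYB, a factor of immature blood cells, stood at 119 ± 1.21 TPM, and GATA1 was 4.04 ± 0.138 times as high as GATA2. SOX6 reached only 2.79 ± 0.189 TPM, and RUNX1T1 was low at 0.0908 ± 0.0175.

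Of 7 regulators known for the switch between fetal and adult globin, 6 were expressed. IGF2BP1, an RNA-binding protein of fetal cells, had 235, 226 and 246 TPM, and LIN28B, a fetal RNA-binding protein that blocks let-7 microRNA maturation, 132, 157 and 145. ZBTB7A, a repressor of the gamma chains, had 46.7 ± 4.33 TPM. BCL11A, the other well-known repressor of the gamma chains, had 14 counts over the 3 libraries, or 0.0109, 0.0300 and 0.0304 TPM. LIN28B was 30.0 ± 6.33 times as high as LIN28A. IGF2BP1 and LIN28B thus lay above 100 TPM and BCL11A close to 0 in every library.

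All 10 heme synthesis genes were expressed, with a median of 72.0 TPM. UROD, an enzyme in the middle of the pathway, had 533 ± 25.1 TPM (SD, n = 3). ALAS2 had 303, 318 and 347 TPM and was 4.42 ± 0.389 times as high as ALAS1, the form used by most tissues (SD, n = 3). FECH, which inserts iron into the ring, stood at 52.6 ± 3.50 TPM, and ALAD was the lowest at 16.7 ± 1.92.

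Of 11 genes for iron uptake, storage and export, 10 were expressed. FTL, the ferritin light chain, was the second highest gene of all, with 8592, 7529 and 7812 TPM. FTH1, the heavy chain, had 1234 ± 119.8 TPM, with 63.2% of its exon bases shared, so the ratio of the chains cannot be read. TFRC, the transferrin receptor, had 226 ± 17.3 TPM, TFR2 145 ± 4.52 and the iron exporter SLC40A1 60.9 ± 6.80. HAMP, the liver hormone that blocks iron export, had 4 counts in all.

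The membrane and cytoplasm list of the red cell had 20 of 22 genes expressed, with a median of 76.6 TPM. RHAG had 569.9, 669 and 608 TPM, HEMGN, a nuclear factor of erythroid cells, 366, 458 and 399, and GYPC, a glycophorin, 414, 391 and 409.7. The spectrin SPTB stood at 90.9 ± 6.72 TPM, and ANK1, its anchor, at 115 ± 7.60. The genes of later red cells were the low ones. SLC4A1, the anion exchanger band 3, had 1.30, 1.34 and 0.921 TPM, EPB42 0.683, 0.0835 and 0.720, CA1, a carbonic anhydrase, 1.70 ± 0.560 and AHSP, the alpha chain stabilizer, 11.2 ± 2.07. SLC4A1 missed the threshold in a single library. GYPB and GYPE, and RHD and RHCE, are close copies whose split and sum are uncertain.

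**Figure D2:**
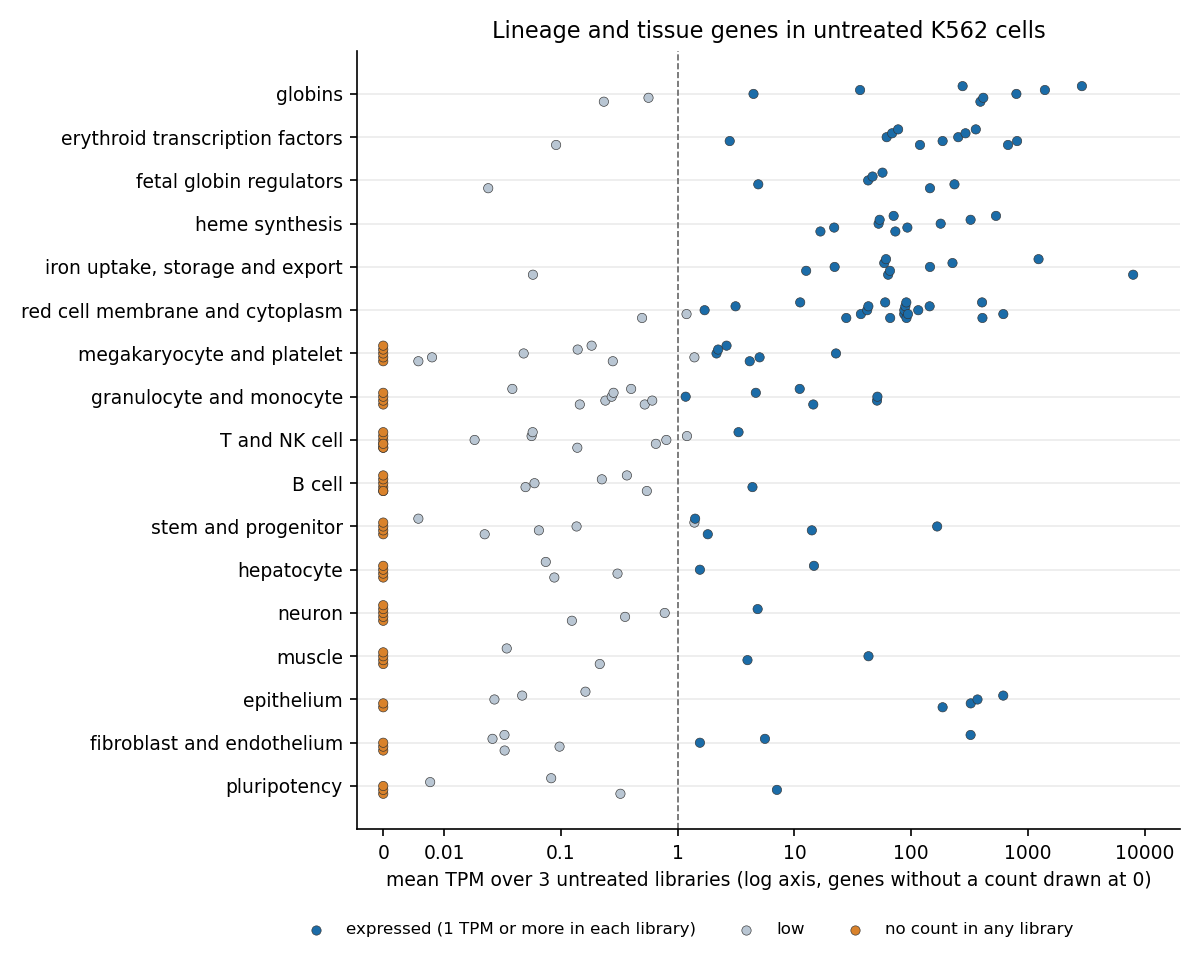
Mean TPM of each gene over the 3 untreated libraries (points, log axis) for the lineage and tissue lists, with the 1 TPM threshold dashed. The erythroid lists lie mostly above 10 TPM, while the other blood and tissue lists hold many genes without a count, drawn at 0.

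Genes of the other blood lineages were mostly low or silent, while 54.5% of all protein-coding genes were expressed and 20.4% undetected. Of 18 megakaryocyte and platelet genes 6 were expressed and 5 undetected, with a median of 0.161 TPM. RUNX1, a factor needed for platelet formation, was the highest at 22.7 ± 1.21 TPM (SD, n = 3). ITGA2B, the alpha chain of the fibrinogen receptor, had 2.62 ± 0.197 TPM, whereas its partner ITGB3 had 0.139 ± 0.128. FLI1 had 1 count, and GP9 and SELP none. PF4 and GP1BB also had none, but 52.1% and 100% of their exon bases are shared, so these zeros are uncertain.

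Of 18 granulocyte and monocyte genes 6 were expressed and 4 undetected. SPI1, the PU.1 factor of myeloid and B cells, had 56.4, 42.6 and 55.2 TPM, and CD33, a surface receptor of myeloid cells, 51.4, 51.8 and 49.8. LYZ had 14.5 ± 1.70 TPM and CEBPA, the granulocyte factor, 11.1 ± 1.01. The granule proteins MPO, ELANE and CTSG and the calprotectin chain S100A8 had no count in any library. Other granule genes, AZU1 and PRTN3, were low at 0.522 ± 0.177 and 0.605 ± 0.243 TPM, as was the factor CEBPE at 0.240 ± 0.0871.

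Lymphoid genes were mostly low or undetected. Of 15 T and NK cell genes only CD3D was expressed, at 3.32 ± 0.575 TPM, and 7 had no count, among them CD2, LCK and ZAP70. Of 12 B cell genes 6 had no count, among them MS4A1, CD79B and EBF1. Of 13 stem and progenitor genes 4 were expressed: GATA2 at 164, 168 and 169.8 TPM, MECOM at 14.1 ± 0.739, KIT, the stem cell factor receptor, at 1.81 ± 0.191 and CD44 at 1.41 ± 0.170. CD34, FLT3, SPINK2 and HOXA9 were undetected.

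Some genes of the lists for other tissues were high. KRT19, a keratin of simple epithelia, had 647, 570.3 and 626 TPM, KRT18 339, 365 and 406, and KRT8 327, 309 and 338. The adhesion molecule EPCAM had 175, 193 and 189 TPM, yet CDH1, the epithelial cadherin, had 4 counts, and KRT5 and KRT14 had none. The intermediate filament VIM stood at 323 ± 37.3 TPM. Of the 10 genes of its list, fibroblast and endothelium, only 3 were expressed, with a list median of 0.0328 TPM. The filament DES stood at 43.1 ± 3.04 TPM, while the muscle factors MYOD1 and MYOG had no count. ALB, the main protein of blood serum, had 15.6, 13.7 and 14.8 TPM, whereas APOB, TTR, FGA and FGB, other liver genes, had none. Of 7 pluripotency genes only ZFP42 was expressed, at 7.08 ± 0.693 TPM.

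The signaling list of BCR-ABL1 and its adaptors was expressed in full, 20 of 20 genes. CRKL, an adaptor that the kinase phosphorylates, had 727, 724 and 726 TPM and was 9.78 ± 0.187 times as high as CRK (SD, n = 3). ABL1 had 260.1, 257 and 294 TPM, BCR 114, 108 and 126, and the ratio of ABL1 to BCR was 2.33 ± 0.0561. Gene counts do not separate transcripts of the fusion from those of the intact genes. STAT5A, a factor downstream of the kinase, had 256 ± 14.3 TPM, which was 3.55 ± 0.0995 times STAT5B. Of 20 cytokine and growth factor receptors 11 were expressed, near the 54.5% of all protein-coding genes. EPOR, the erythropoietin receptor, had 29.5 ± 1.48 TPM. CSF2RB and IL7R stayed low, at 0.713 ± 0.237 and 0.0407 ± 0.0705 TPM.

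All 11 HDAC genes, which encode the zinc-dependent deacetylases, were expressed. HDAC1 was the highest with 197, 212 and 198 TPM and was 2.91 ± 0.144 times HDAC2. HDAC3 stood at 82.3 ± 2.82, HDAC2 at 69.6 ± 1.80, HDAC7 at 45.2 ± 2.04 and HDAC6, the tubulin deacetylase, at 12.2 ± 0.295 TPM. HDAC8 and HDAC9 were the lowest, with 1.90 ± 0.210 and 1.20 ± 0.0960 TPM, and HDAC10 at 2.69 ± 0.221 has 73.6% of its exon bases shared. The order HDAC1, HDAC3, HDAC2, HDAC7, HDAC5, HDAC6, HDAC4 held in every library. The 7 sirtuins, deacetylases that need NAD, were expressed too, from SIRT4 at 2.29 ± 0.450 to SIRT6 at 56.7 ± 8.74 TPM.

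Genes of cell division were high. All 15 proliferation genes were expressed, with MCM7, a helicase subunit, at 827 ± 21.8, PCNA at 708 ± 21.2 and MKI67 at 117 ± 2.43 TPM. Among the D-type cyclins CCND3 was the highest: it had 283, 279 and 293 TPM, which was 32.8 ± 3.36 times CCND1 and 13.2 ± 3.85 times CCND2. CCNA1, the germ line cyclin, had no count. Of the BCL2 family 13 of 17 genes were expressed, beside 54.5% of all protein-coding genes. The survival genes MCL1 and BCL2L1 stood at 173 ± 3.42 and 100.5 ± 2.93 TPM, and BCL2 itself at 1.12 ± 0.0533, so MCL1 was 155 ± 6.37 times as high as BCL2. BCL2A1 had no count. Among drug transporters, the efflux pump ABCB1 had 21 counts (0.137 ± 0.0475 TPM), while ABCG2 had 10.3 ± 1.15 and ABCC4 86.6 ± 7.45 TPM.

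Antigen presentation was uneven. Of 13 class I genes 9 were expressed, beside 54.5% of all protein-coding genes, and only 4 at a threshold of 5 TPM. B2M, the constant chain of class I molecules, had 309, 334 and 299 TPM, but the heavy chain gene HLA-B had 1.72 ± 0.349 TPM. HLA-E, TAPBP, a chaperone of class I loading, and HLA-C had 32.0 ± 1.85, 37.5 ± 5.91 and 10.9 ± 0.551 TPM. B2M was 28.8 ± 1.12 times as high as HLA-C. TAP1, which carries peptides to class I molecules, had 2.80 ± 0.385 TPM, and NLRC5, the activator of class I genes, 0.151 ± 0.0636. None of the 11 class II genes was expressed, CD74 being the highest at 0.665 ± 0.153 TPM, and 5 had no count, HLA-DRA among them.

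By class, the genes of protein synthesis and energy were nearly all expressed. Of 87 cytosolic ribosomal protein genes 85 were expressed and held 11.1% ± 0.106 of TPM. RPS12 was the highest of them at 6449, 6990.1 and 6454 TPM. Of 78 mitochondrial ribosomal protein genes 77 were expressed, and of 48 proteasome genes 44. In the translation factors EEF2 and EEF1A1 led, at 5064 ± 466 and 4620.1 ± 342 TPM. Of 89 histone genes 49 (55.1%) were expressed and 19 (21.3%) undetected, near the 54.5% and 20.4% of all protein-coding genes. H1-2 and H2BC12 reached 6794 ± 358 and 5594 ± 481 TPM. Most histone transcripts lack a poly(A) tail, and several histone genes are near-identical, so their levels after poly(A) selection are uncertain.

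Sensory, barrier and cytokine genes were mostly low or undetected. None of 94 keratin-associated protein genes and none of 53 clustered protocadherins was expressed, and 89 and 28 had no count. Of 40 beta-defensins 37 were undetected, and of 17 type I interferons 16, the other being IFNK with 0.974 ± 0.740 TPM. Only 2 of 39 interleukins and 2 of 41 chemokines were expressed, CXCL8 at 3.37 ± 0.0309 TPM among them. Of 26 MAGE antigens, germ line proteins that tumors often make, 13 were expressed, with MAGEA3 at 623 ± 12.7 and MAGEA6 at 454 ± 15.3 TPM, a pair of close copies. PRAME, a tumor antigen outside this class and named after its value was seen, had 1635 ± 29.4 TPM. In the HOX clusters 19 of 39 genes (48.7%) were expressed, not far from the 54.5% of all protein-coding genes. HOXB9 and HOXB4 led at 296 ± 2.66 and 138 ± 4.94 TPM. Of 96 potassium channel genes 18 were expressed, with KCNH2, the cardiac hERG channel, at 479.7, 521 and 548 TPM.

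Other large families were used in part. Of 515 zinc finger genes with a ZNF symbol, many of them repressors, 361 (70.1%) were expressed, but with a median of 5.08 TPM, and ZNF385A was the highest at 204 ± 25.7. Of 337 solute carriers, which move small molecules across membranes, 167 (49.6%) were expressed, not far from the 54.5% of all protein-coding genes. SLC25A6 and SLC25A5, the mitochondrial ADP and ATP carriers, led with 2308 ± 61.4 and 1614 ± 41.1 TPM, followed by the amino acid transporters SLC1A5 at 789 ± 50.9 and SLC7A5 at 728 ± 77.5. Of 55 keratins 5 were expressed and 39 had no count. Of 56 cytochrome P450 genes, which oxidize drugs and steroids, 7 were expressed, none above CYP2S1 at 19.3 ± 2.14 TPM. Of 44 collagens 11 were expressed, with COL18A1 at 124, 116 and 139.6 TPM, and of 24 claudins, proteins of tight junctions, 6 were expressed, with CLDN15 at 18.0 ± 2.03. Of 32 GAGE, PAGE, XAGE and SSX antigens 4 were expressed, but XAGE1A had 1.14, 12.6 and 0.926 TPM, and close copies make single genes of this family uncertain.

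Among 10007 processed pseudogenes 898 were expressed, and together they held 3.94% ± 0.0577 of TPM (SD, n = 3). Of 145 immunoglobulin variable genes 2 were expressed and 133 had no count, and of 106 T cell receptor variable genes none was expressed and 103 had no count. Small RNA genes were mostly undetected, with 1484 of 1877 microRNA genes and 682 of 939 snoRNA genes at 0, which a poly(A)-selected library measures only as longer transcripts.

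**Figure D3:**
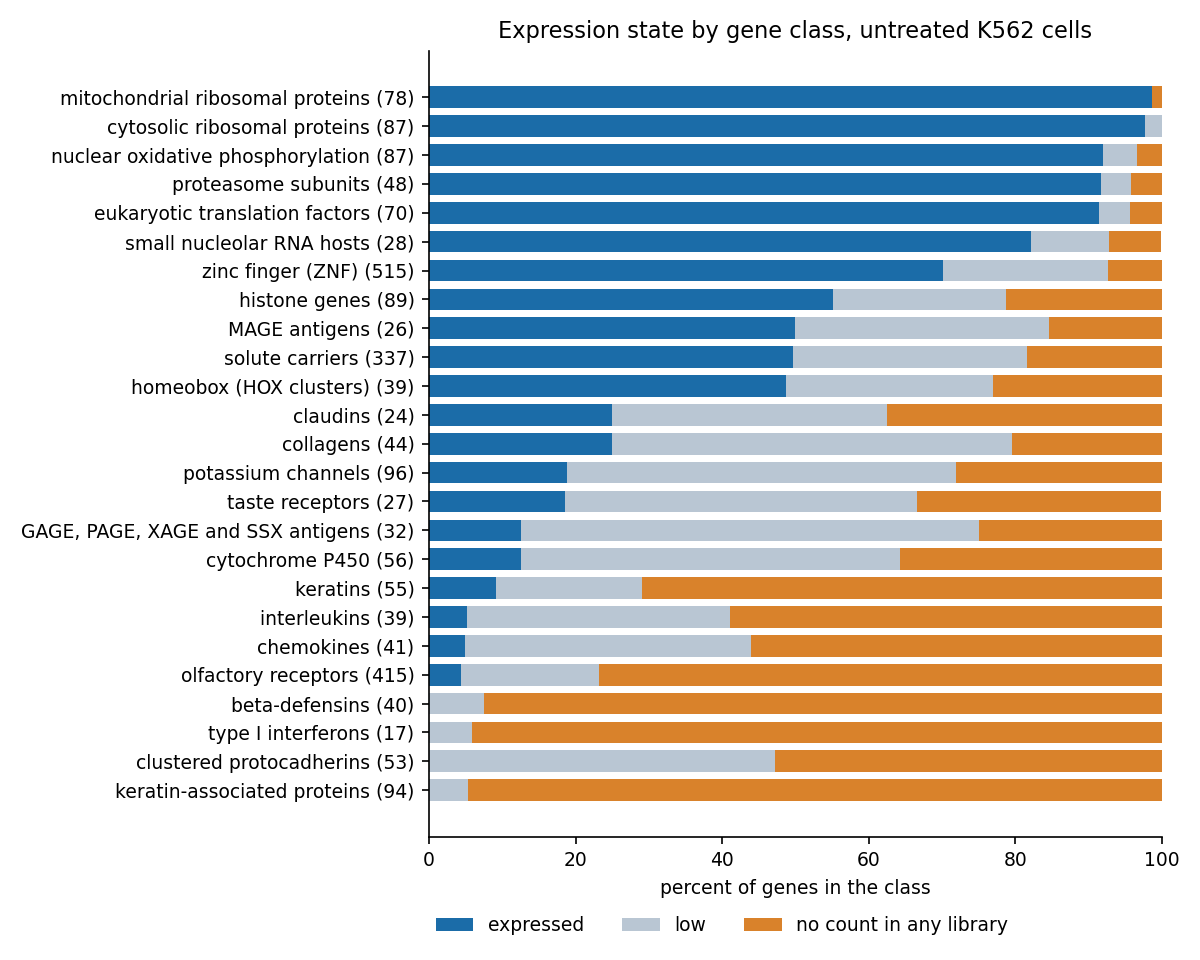
Percent of genes expressed, low or without a count (stacked bars) in each gene class, with the number of genes in brackets. Mitochondrial and cytosolic ribosomal proteins are expressed to 98.7% and 97.7%, and 94.7% of keratin-associated proteins have no count.

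Only 18 of 415 olfactory receptor genes, which serve smell in the nose, were expressed, and 319 had no count. At a threshold of 5 TPM only 4 were expressed. Of the 18, 9 lie side by side on chromosome 11 from OR51B4 to OR52D1, next to the globins HBB, HBD, HBG1 and HBG2, and all 9 receptors in that interval were expressed. Among the 406 other receptors 9 were expressed. OR51B4 had 33.5, 29.5 and 29.3 TPM and OR51B5 29.5, 33.7 and 29.6, while OR51M1 was the lowest of the 9 at 1.10 ± 0.0733 and the median of the 9 was 3.76 TPM. The nearest receptor before HBB, OR51V1, had no count, nor had UBQLNL after OR52D1. Farther out OR52A1 was low at 0.137 ± 0.0848 TPM, OR52A5, OR52H1 and OR52B6 had 2 counts each, and TRIM6 was expressed at 3.68 ± 0.529 TPM. The annotated spans of HBG2, HBE1 and OR51B5 run across the interval, and the share of reads from transcripts that run on from the globin genes was not tested. The interval was chosen after the values were seen.

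**Figure D4:**
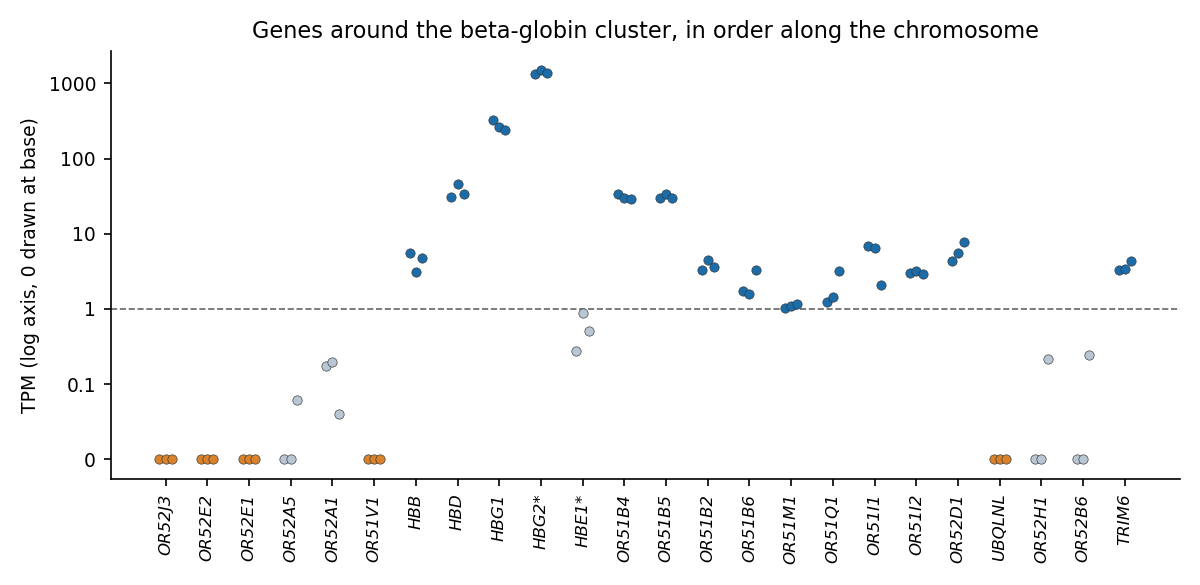
TPM of 24 protein-coding genes around the beta-globin cluster, in chromosome order, in the 3 untreated libraries (points, log axis, 0 at the base, 1 TPM dashed). Genes without a symbol, a gene with all exon bases shared and a gene not reported here are left out. From HBB to OR52D1 the genes drawn, except HBE1, lie at or above 1 TPM, and the neighbors on both sides lie at or near 0, except TRIM6 at the far end. Blue points are expressed genes, gray low ones and orange genes without a count. Asterisks mark HBG2 and HBE1, whose exons are 50% or more shared.

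Silent genes often lay next to each other. There were 108 stretches of at least 5 neighboring protein-coding genes without a count, with 932 genes, or 23.0% of all undetected ones. The longest held 51 genes, from XKR5 to FAM90A12P, with the defensins, on chromosome 8. Many genes of this stretch are near-identical copies (FAM90A, defensin and USP17L genes), so their zeros are uncertain. Next came 36 genes from OR4B1 to OR5I1 and 27 from OR5J2 to LRRC55 on chromosome 11, mostly olfactory receptors, and 23 from KRT40 to KRTAP4-2 on chromosome 17. The fifth was a stretch of 22 genes over 1.46 Mb on chromosome 9 (chr9:20999509-22455740, hg38), from HACD4 to DMRTA1. It holds 16 type I interferon genes along with KLHL9, MTAP, CDKN2A and CDKN2B. CDKN2A and CDKN2B encode inhibitors of the cyclin D kinases, and MTAP an enzyme of methionine salvage. In the 12 treated libraries 16 of the 22 genes also had no count, and the other 6 had 28 counts in all, at most 8 for a gene. Before HACD4, FOCAD had 0.370 ± 0.0492 TPM and MLLT3 9.21 ± 0.922. Loss of the DNA and silencing cannot be told apart in RNA counts. By contrast the inhibitors CDKN2C and CDKN1B stood at 59.9 ± 6.45 and 24.4 ± 1.08 TPM.

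By chromosome the share of expressed protein-coding genes ran from 40.5% on chromosome 21 to 61.2% on chromosome 16.

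The CpG content before the start site differed between the states. The ratio of observed to expected CpG reached 0.6 in 86.1% of the windows of expressed genes, 48.2% of low genes and 30.7% of undetected genes. Read the other way, 11.9% of genes with a ratio under 0.2 were expressed, and 76.3% of those at 0.8 or more. TATAAA, the core of the TATA box, searched on both strands, occurred in 4.94% of the windows of expressed genes and 19.0% of undetected ones. Only 46.9% of the 49 expressed erythroid genes reached a ratio of 0.6. KLF1, RHAG and ALAS2, printed above, have ratios of 0.219, 0.0970 and 0.0646. These shares are descriptions, with no test.

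**Figure D5:**
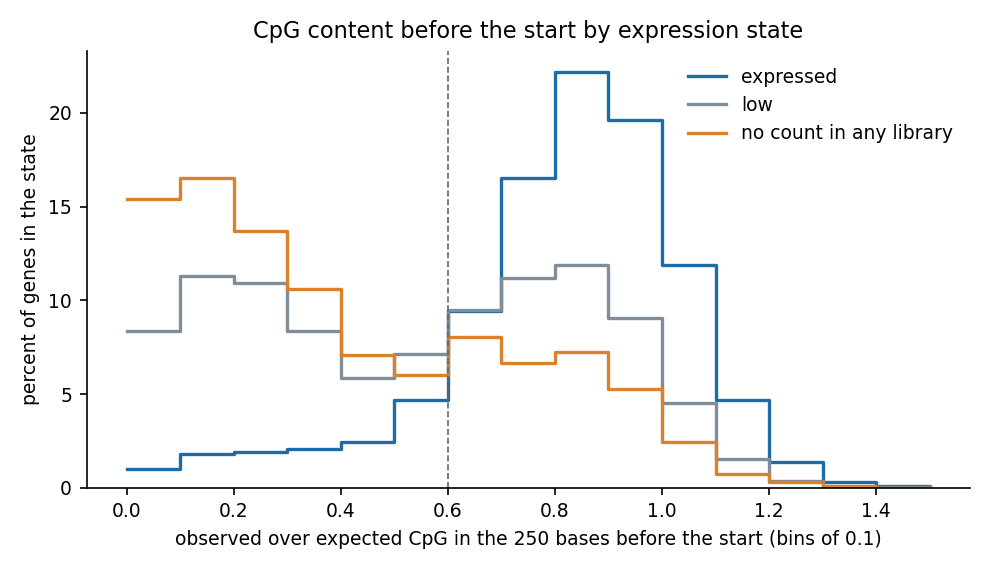
Share of genes (percent of each state) by observed over expected CpG in the 250 bases before the start, in bins of 0.1, for expressed, low and undetected protein-coding genes. Expressed genes lie mostly right of the dashed line at 0.6 (86.1%), undetected genes mostly left of it (30.7% right of it).

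The highest mean level belonged to MTATP6P1, a nuclear pseudogene of the mitochondrial gene for ATP synthase subunit 6, with 8348, 8141 and 9182 TPM, though FTL was higher in replicate 1. All 37 genes of the mitochondrial genome itself had 0 counts in all 15 libraries. The reads of the mitochondrial gene and of its copy cannot be told apart here. RN7SL1, the RNA of the signal recognition particle, had 6716, 4970.2 and 3810.4 TPM. Among genes annotated as long non-coding RNAs, ENSG00000280800 had the highest mean, 2102 ± 1328 TPM, and was among the most variable. It had 3547, 936 and 1823 TPM. Whether its reads came from ribosomal RNA was not tested, so its rank is uncertain. MALAT1 followed at 1131 ± 135 TPM, with 83.7% of its exon bases shared. MALAT1 lay above ENSG00000280800 in replicate 2, at 983 TPM, and NORAD had 259 ± 8.90 TPM.

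Spread between libraries fell with level. The median coefficient of variation was 16.3% for genes of 1 to 10 TPM, 6.94% for 10 to 100, 6.22% for 100 to 1000 and 5.36% above. Of the 6 genes with the highest coefficient among genes of at least 10 TPM, RNA5-8SN1 and RNA5-8SN3, copies of the 5.8S ribosomal RNA, led with 84.1% and 82.5%. RNA5-8SN1 had 228, 46.4 and 74.7 TPM, so replicate 1 stood apart. ENSG00000280800, also among these genes, starts at base 8210384 of chromosome 21, where RNA5-8SN3 starts at 8395607 and RNA5-8SN1 at 8439823. It was likewise highest in replicate 1. Its order of libraries was that of RNA5-8SN1, but not that of RNA5-8SN3, which had 132, 55.2 and 20.3 TPM.

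Fewer genes had a count in untreated than in treated cells at equal depth. After each of the 15 libraries was thinned to 23747775 counts, 25731, 25151 and 25365 genes had a count in the untreated libraries, and 32801 ± 1478 (SD, n = 12) in the treated ones. The difference, untreated minus treated, was -7385 genes, and 12 of 12 treated libraries lay above all 3 untreated ones (two-sided exact permutation test over 455 arrangements, p = 0.0022, the smallest it can give, 0.0044 after Benjamini-Hochberg adjustment over 2 tests). The mean was 31420 genes under the lowest dose, 0.15 µM, with 34129 for 0.25 µM, 32601 for 0.5 µM and 33053 for the highest dose, and at each concentration alone all 3 libraries lay above the untreated ones, where 3 against 3 cannot go below an exact p of 0.1. The 100 highest genes held 17.5% ± 0.191 of counts in untreated cells and 19.6% ± 3.22 in treated cells, with no difference past the threshold over the 4 concentrations together (exact permutation p = 0.295, adjusted 0.295). By concentration the differences had both signs: the share was 16.4% ± 1.00 at 0.15 µM and 17.9% ± 2.51 at 0.25 µM (SD, n = 3), while untreated minus treated was -4.49 percentage points at 0.5 µM and -4.51 at 1 µM. At 0.5 and at 1 µM all 3 libraries lay above the untreated ones, with an exact permutation p of 0.1 each, the smallest possible. Of the 4053 protein-coding genes undetected in untreated cells, 945 also had no count in the 12 treated libraries, a count over 12 libraries as deposited, without thinning.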

How the data were processed

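Poly(A)-selected RNA of K562 cells was sequenced in 15 libraries, 3 untreated and 12 treated with martinostat, with groups taken from the sample labels. Per the labels, the authors trimmed reads with Trim Galore 0.6.10, aligned them to hg38 with HISAT2 2.2.1, used SAMtools 1.21 and counted per gene with featureCounts 1.5.3. Sequencing was paired-end, and low counts were often even: PRTN3 had 4, 8 and 4 counts and GP5 2, 2 and 0. The 2 mates of a pair may thus have been counted separately. Strand, multi-mapping and mate-pair settings are not given in the sources used here. The deposited count table held raw counts of 60649 genes. The deposited FPKM of the authors used the genomic span as gene length in about 95% of genes and served only as an alternative.

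TPM were computed from the counts and union exon lengths of GENCODE v44. Genes without annotation (142, with 0.0264% of counts), second pseudoautosomal copies, chromosome Y and the mitochondrial genome were left out, which left 59904 genes. Windows before the start came from hg38 for 19883 of 19884 protein-coding genes, and the printed ones from RefSeq. The spread between libraries was estimated with edgeR 4.0.16 in R 4.3.3 after filterByExpr and TMM scaling. Tables were made with pandas 2.3.3 and numpy 2.4.6. The only tests were 2 exact permutation tests of untreated against treated libraries. The estimate of spread, the expression states and the permutation test were tested on simulated data. These had independent counts and the same dispersion for all genes, set above the value found here. They do not show how well a spread as small as the one found here is recovered.

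Named genes were members of 28 lists and 25 classes, the 15 highest genes, the 6 highest long non-coding RNAs, the 6 most variable genes and the 5 longest silent stretches. Values of some genes are not reported here. Others are said to be chosen after their values were seen. The lists and the choice of libraries were made with earlier results of these data known. The labels give biological replicates, and p-values measure the spread between these samples. Intervals and floors cover counting error only. Alternatives were the TPM threshold, CPM or FPKM, unshared exon bases, other scalings and filters, and leaving out each library.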

Additional observations from a re-analysis of the deposited data

How the results depend on the processing

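The number of expressed protein-coding genes was 8973 to 11479 under TPM thresholds of 5 and 0.5, the mean of the libraries, CPM or unshared exon bases, and 5323 at 1 or more deposited FPKM, whose genomic span is the length. It was 10890 to 10939 without any 1 replicate. Undetected genes numbered 6335 when under 10 counts over the 3 libraries was the limit, 4172 after thinning, 3414 without genes of shared exons and 4444 to 4597 without a replicate. As shares of counts in place of TPM, the 10 highest genes held 4.66%, the 100 highest 17.5% and the globins 0.155% because counts are not divided by gene length. On unshared exon bases the 100 highest held 23.7% and the globins 0.832%. Without a replicate the 10 highest held 6.32% to 6.36%, the 100 highest 23.2% to 23.4% and the globins 0.611% to 0.630%. The biological coefficient of variation was 0.0788 to 0.0956 without a replicate and 0.0963 at most otherwise. Of 53 lists and classes, 17 moved by over 1.5 times at 5 TPM, 7 at 0.5 TPM and none on unshared exon bases. The tests of untreated against treated libraries kept their direction and side of 0.05 under every alternative run, with differences of -7612 to -7077 genes (p = 0.00275 to 0.011) and -2.51 to -1.65 percentage points (p = 0.179 to 0.44, exact permutation) without 1 library.

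The labels number replicates alike in all groups. Deviations of same-numbered untreated and treated libraries correlated at -0.185 to 0.306, with 4 of 12 pairs over 0.1. Libraries of unlike number were not compared, so these values cannot decide whether the numbers mean pairing. The main tests did not use the numbers. With permutation within the replicate number as a block, the difference, untreated minus treated, stayed at -7385 genes (replicate block, exact permutation p = 0.008) and at -2.10 percentage points in the share of the 100 highest genes (exact permutation p = 0.32).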
